A study of Mus musculus with 4 samples.

Results

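Single-cell RNA sequencing of CSF1R+ cardiac myeloid cells was used to follow 9 genes of the NRF2 antioxidant response. They were Nfe2l2, Nqo1, Gclm, Gclc, Gsr, Txnrd1, Srxn1, Slc7a11 and Prdx1, chosen by gene symbol from the 31053 genes of the deposited matrices, and all 9 were found. The mice carried a transgene in which the Csf1r promoter drives EGFP (CSF1R-EGFP, MacGreen) and were 12 to 16 weeks old, and cardiac cells were sorted as EGFP+ and Ly6G-, so that neutrophils were gated out. The baseline group was 1 library made from 3 control hearts pooled, without surgery. For the infarct group 3 hearts gave 1 library each, taken 7 days after ligation of the left coronary artery, from which the remote zone had been excised. No sham-operated library was analysed here, so that surgery, infarction and the baseline library itself cannot be told apart.

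NRF2, the protein of Nfe2l2, is a transcription factor that is normally bound by KEAP1 and degraded. Oxidants and electrophiles modify KEAP1, NRF2 accumulates, and with a small MAF partner it binds antioxidant response elements near its target genes. Its targets make and recycle glutathione (Gclm and Gclc, Gsr, and the cystine importer Slc7a11), run the thioredoxin and peroxiredoxin system (Txnrd1, Srxn1 and Prdx1) and reduce quinones (Nqo1). Because NRF2 is controlled mainly through its protein, the transcript of Nfe2l2 is not a measure of its activity. Macrophages meet oxidants when they take up dead cells and red cells, and their own oxidase makes superoxide.

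The members lie on 6 chromosomes (GRCm38, GENCODE vM21): Nfe2l2 at chr2:75675513-75704641, Srxn1 at chr2:152105516-152111376, Gclm at chr3:122245557-122270732, Slc7a11 at chr3:49892526-50443614, Prdx1 at chr4:116685544-116700822, Gsr at chr8:33652523-33698163, Nqo1 at chr8:107388225-107403206, Gclc at chr9:77754535-77794485 and Txnrd1 at chr10:82833951-82897712. Eid3 overlaps Txnrd1 on the same strand, so that their reads cannot be fully told apart. The promoters of the members were searched for the core letters of the antioxidant response element, TGACNNNGC, on both strands. Promoter sequences came from RefSeq (GRCm38.p6) and ran from 250 bases before a start site to 50 bases after it. Of the 9 members, 7 had an entry, with 9 promoters among them, and 5 of these 7 genes held a match (Nfe2l2, Gclm, Txnrd1, Srxn1 and Prdx1). Counted by promoter, 5 of the 9 member promoters held one, against 12.4% of all 32851 promoters of that length. The members were chosen as genes of the NRF2 response, so these shares are no test. The other windows of Txnrd1 and those of Nqo1 and Slc7a11 held no such letters, and Gclc and Gsr had no entry. The 4 stretches below belong to Gclm, Prdx1, Srxn1 and Txnrd1, the members with a match whose levels were higher in infarct monocytes, and each match is in capitals. All 4 matches lie on the opposite strand, so that the capitals show their reverse complement.
Gclm, chr3:122245307-122245496, plus strand, match beginning 134 bases before the start site: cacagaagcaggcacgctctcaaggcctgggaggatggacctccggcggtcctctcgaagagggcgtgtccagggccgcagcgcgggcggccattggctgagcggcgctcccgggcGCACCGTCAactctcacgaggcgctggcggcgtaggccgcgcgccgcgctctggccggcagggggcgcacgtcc
Prdx1, chr4:116685349-116685538, plus strand, match beginning 133 bases before the start site: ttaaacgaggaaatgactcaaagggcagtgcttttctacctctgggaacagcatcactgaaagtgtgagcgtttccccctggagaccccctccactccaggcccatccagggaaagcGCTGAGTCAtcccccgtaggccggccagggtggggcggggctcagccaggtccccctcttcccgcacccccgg
Srxn1, chr2:152105542-152105570, plus strand, match beginning 28 bases after the start site: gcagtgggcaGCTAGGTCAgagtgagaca
Txnrd1, chr10:82858956-82859145, plus strand, match beginning 92 bases before the start site: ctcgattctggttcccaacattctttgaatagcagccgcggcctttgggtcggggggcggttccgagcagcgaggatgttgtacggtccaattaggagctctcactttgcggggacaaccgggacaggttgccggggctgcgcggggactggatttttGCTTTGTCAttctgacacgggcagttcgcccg
The match in Prdx1 also spells the AP-1 motif TGACTCA. A match of these letters is a description of the sequence and does not show binding.

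After filtering, 10238 cells remained at baseline and 10396, 10782 and 10117 in infarct replicates 1, 2 and 3, with median depths of 6398.5 unique molecular identifiers (UMIs) at baseline and 8469.5 to 8556.5 in the infarct libraries. Pairs of libraries shared 26 to 34 cell barcodes. Levels are given as CPM (counts per 1000000 UMIs summed over cells, without mitochondrial genes) and are never compared between genes. Cells with at least 10 UMIs of C1qa, C1qb and C1qc per 10000 were called C1q macrophages. Their share of cells was 72.2% at baseline and 81.7%, 86.8% and 88.1% in infarct replicates 1, 2 and 3.

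C1q macrophages were divided by marker genes, in order, into cycling, interferon, resident (Lyve1, Cd163, Timd4, Cd209f, Vsig4), Saa3-Arg1 (Saa3, Arg1, Fn1, Marco, Thbs1), Gpnmb+ Spp1-high, Gpnmb+ Spp1-low, MHC-II-high Gpnmb-low and remaining macrophages. The other cells were divided into granulocyte, dendritic cell, non-classical monocyte and classical monocyte gates, with smaller gates of B, endothelial, fibroblast and T or NK cells that were not compared, and an ungated rest. No member of the NRF2 set was used in any gate. Defining markers were high in the gates named for them, with the following limits. The granulocyte gate held 26 to 50 cells in each infarct library with median depths of 2320.5 to 3044 UMIs, although the sort had gated out Ly6G+ cells. The resident gate held 2556 baseline cells but only 47 to 138 cells of an infarct library, and in the infarct its summed Saa3-Arg1 markers stood at 2300 to 16604 CPM against 174 at baseline. Classical monocyte markers also reached 3545 to 4468 CPM in the infarct non-classical gate, against 4356 to 5563 in the classical gate, and non-classical markers reached 600.4 to 1026 CPM in the infarct granulocyte gate against 789 to 1176 in the non-classical gate. Between baseline and infarct the non-classical gate itself differed, its own markers standing at 2054 CPM at baseline, its MHC class II genes at 3205 against 9003 to 10512 CPM and Spp1 at 35.5 against 264 to 473 CPM.

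To ask how the antioxidant genes differed between the infarcted and the uninjured heart, levels over all cells of each library were compared first. Gclm, Srxn1 and Prdx1 were higher in every infarct library than at baseline, by 1.64- to 2.31-fold over all cells or C1q macrophages, and Gsr was lower over all cells. Nfe2l2 itself stood on both sides of its baseline level. With 1 baseline library there is no test. A gene is counted as higher or lower where all 3 infarct libraries lay on the same side of baseline and the mean differed by at least 1.5-fold, and intervals for the baseline are exact 95% Poisson intervals that cover counting error only.

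Prdx1 encodes a peroxiredoxin that reduces hydrogen peroxide. It stood at 512 CPM at baseline (507 to 517) and at 896, 914 and 906 CPM in infarct replicates 1, 2 and 3, a mean of 905 ± 8.77 (SD, n = 3) and a ratio of 1.77. The 3 infarct libraries lay close together and far above the baseline interval. Srxn1, sulfiredoxin, which restores overoxidised peroxiredoxins, stood at 6.95 CPM at baseline (6.34 to 7.61) and at 17.9, 15.0 and 15.2 CPM in the infarct, 2.31-fold higher with a mean of 16.0 ± 1.60 (SD, n = 3). Its was the largest ratio among the 8 members counted. Gclm, the modifier subunit of glutamate-cysteine ligase, stood at 35.5 CPM (34.0 to 36.9) against 65.0, 58.7 and 64.5 CPM, 1.77-fold higher with a mean of 62.7 ± 3.51 (SD, n = 3).

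Txnrd1, cytosolic thioredoxin reductase, lay above baseline in every infarct library without reaching 1.5-fold. It stood at 57.1 CPM at baseline (55.3 to 58.9) and at 83.4, 72.1 and 86.8 CPM in the infarct, a ratio of 1.41. Gclc, the catalytic partner of Gclm, did not share its direction. It stood at 21.0 CPM at baseline (19.9 to 22.1) and at 19.1, 15.4 and 18.1 CPM in the infarct, below baseline in every library with a log2 ratio of -0.26. Slc7a11 stood at 15.4 CPM at baseline (14.5 to 16.4) and at 15.4, 18.0 and 15.8 CPM, and Nfe2l2 at 274 CPM (269.7 to 278) against 258, 274 and 288 CPM, so that neither separated the groups. Nqo1, the quinone reductase that often serves as the marker of NRF2 activity, was at very low counts in these cells. It held 22 UMIs in the whole baseline library (0.325 CPM, 0.204 to 0.493) and 120 UMIs over the 3 infarct libraries (0.385, 0.479 and 0.480 CPM), under the minimum of 5 CPM set for the counts below.

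**Figure D1:**
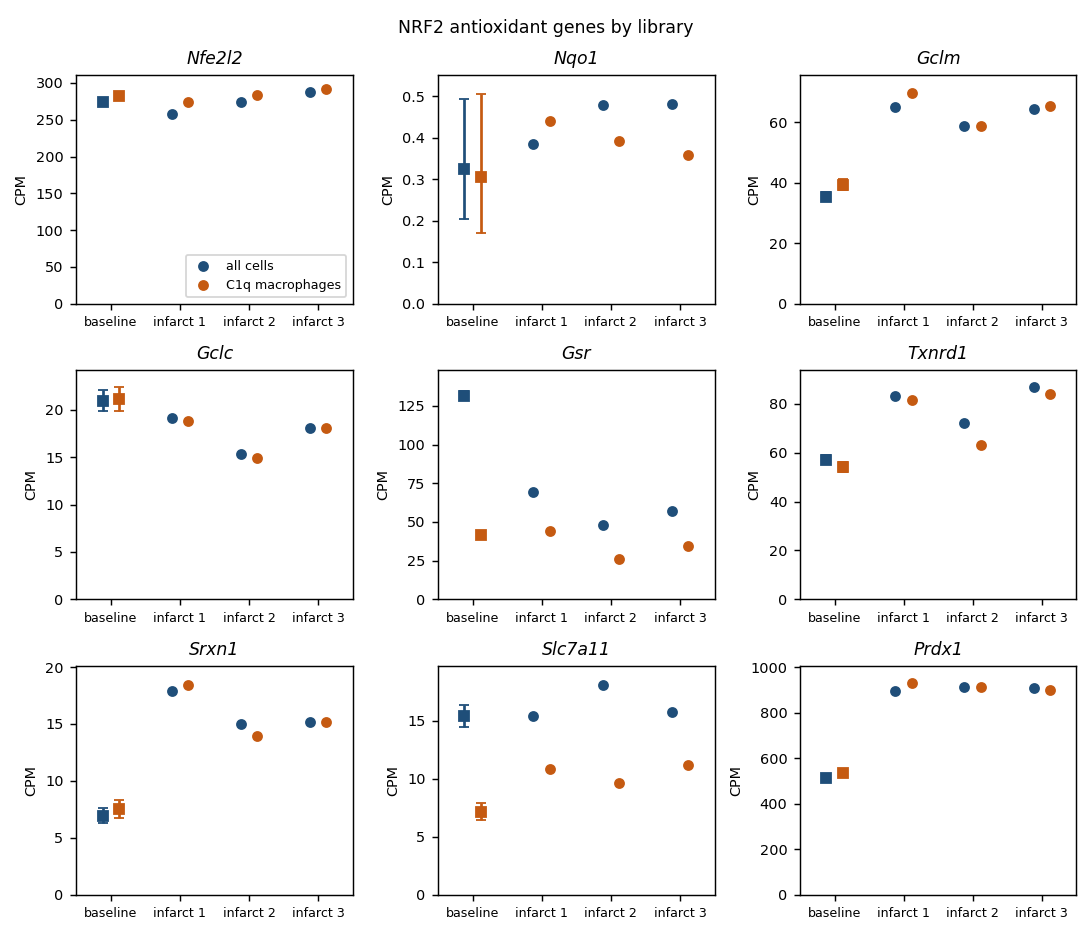
Level of each of the 9 genes in CPM by library, on linear axes from 0, over all cells (blue) and over C1q macrophages (orange). Squares are the baseline library with its exact 95% Poisson interval and circles the 3 infarct libraries. Gclm, Srxn1 and Prdx1 lie above baseline in every infarct library on both bases, while for Gsr the gap over all cells (132 CPM at baseline against 47.7 to 69.5) is not seen in C1q macrophages (41.8 against 25.7 to 44.3).

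Of the 8 members counted, 3 were higher, against 5.91% of all genes counted, and 1 was lower, against 24.2%. The median log2 ratio was 0.30 for the members and -0.23 for all genes. Scaling by trimmed mean of M values (TMM) in place of library totals moved the median of all genes by 0.30. By CPM 572 genes were higher and 2337 lower, so that 19.7% of the calls were higher ones, and by TMM 1552 were higher and 1042 lower, or 59.8%. With TMM the members counted 4 higher, against 16.3% of all genes counted, and 1 lower, against 10.9%. Txnrd1 was the member added, with a log2 ratio of 0.78. Summed levels of 9 dissociation-response genes were 10594 CPM at baseline and 7029 to 7990 CPM in the infarct, those of 7 integrated stress response genes were 276 against 147 to 165 CPM, and those of 4 red cell genes were 89.2 against 0.416 to 167 CPM. Their part in these results was not tested.

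Gsr, glutathione reductase, regenerates glutathione from its oxidised form. Over all cells it stood at 132 CPM at baseline (129 to 134) and at 69.5, 47.7 and 57.0 CPM in infarct replicates 1, 2 and 3, so that baseline was 2.27-fold higher. Within C1q macrophages the groups overlapped, at 41.8 CPM against 44.3, 25.7 and 34.6 CPM. Cells with little C1q gave 77.0% of all baseline Gsr UMIs and 46.3% to 53.2% of those of an infarct library, and they were 27.8% of baseline cells and 11.9% to 18.3% of infarct cells. The non-classical monocyte gate alone gave 52.3% of baseline Gsr UMIs, against 14.0% to 19.0%. Slc7a11 came from the same cells for the larger part at baseline, where 66.4% of its UMIs were from cells with little C1q, against 37.0% to 53.9% in the infarct. Prdx1 came mainly from macrophages, with 24.3% of its UMIs from cells with little C1q at baseline and 12.1% to 14.9% in the infarct.

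Levels were then compared within C1q macrophages and within the 7 classes that held at least 200 baseline cells. In C1q macrophages as a whole, 3 members were higher in the infarct, against 7.12% of all genes, and the medians of the log2 ratio were 0.53 and -0.24. They were Gclm at 39.4 CPM against 69.8, 58.8 and 65.3 CPM (1.64-fold), Srxn1 at 7.50 against 18.4, 13.9 and 15.2 CPM (2.11-fold) and Prdx1 at 534 against 929, 914 and 900.0 CPM (1.71-fold). Slc7a11 came close, at 7.13 CPM against 10.8, 9.59 and 11.2 CPM with a ratio of 1.48, and Txnrd1 had a ratio of 1.41.

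In the MHC-II-high gate, which held the most macrophages of every library and 3615 to 4093 cells of an infarct library, 2 members were higher (6.27% of all genes) and 1 was lower (24.8%). Srxn1 stood at 5.76 CPM against 10.1, 9.76 and 10.6 CPM (1.77-fold) and Prdx1 at 445 against 709, 723 and 712 CPM (1.61-fold). Gsr was the lower one, at 40.5 CPM against 32.8, 21.9 and 22.2 CPM, with baseline 1.58-fold higher. Gclm was above baseline in each library of this gate, at 36.4 CPM against 44.5, 43.6 and 48.1 CPM, but its ratio of 1.25 was under the fold used.

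In the resident gate 3 members were higher, against 9.85% of all genes. They were Gclm at 37.7 CPM against 76.6, 54.7 and 61.0 CPM (1.70-fold), Srxn1 at 7.15 against 31.1, 14.3 and 23.8 CPM (3.22-fold), and Slc7a11 at 1.75 against 2.07, 4.76 and 9.67 CPM (3.14-fold), which rests on 17 UMIs in the infarct and 35 at baseline. Gsr and Txnrd1 stood on both sides of baseline in this gate, low in replicate 2, the library with 47 cells. Nfe2l2 was below baseline in each library, at 255 CPM against 217, 183 and 201 CPM with a log2 ratio of -0.35. In the infarct the resident gate also held the Saa3-Arg1 markers given above, and the part of these in its values was not tested.

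In the remaining macrophages, the C1q macrophages that met no other marker rule, 1 member was higher (7.63% of all genes) and 3 were lower (31.7%). Gclm was the higher one, at 44.6 CPM against 90.5, 72.6 and 76.6 CPM (1.79-fold). Gsr stood at 84.1 CPM against 28.8, 22.2 and 26.4 CPM, with baseline 3.26-fold higher, Slc7a11 at 21.7 against 10.8, 8.83 and 11.1 CPM (2.12-fold higher at baseline) and Gclc at 27.8 against 19.9, 16.9 and 17.7 CPM (1.53-fold higher at baseline). All infarct libraries lay below the baseline intervals of these 3 genes. Prdx1 and Srxn1 were above baseline with ratios of 1.43 and 1.36, under the fold used. These cells had a median depth of 3068 UMIs at baseline and 8042 to 8336 in the infarct, with non-classical monocyte markers at 309 against 151 to 186 CPM, classical ones at 319 against 86.4 to 123 CPM and S100a8 and S100a9 at 571 against 37.4 to 148 CPM. The part of these in the values was not tested.

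In the non-classical gate 5 of 8 were higher, against 14.0% of all genes, with a median log2 ratio of 0.87 against -0.08, in a gate whose markers differed between the groups as given above. The part of that difference was not tested. Gclm stood at 15.1 CPM at baseline (12.6 to 17.9) and at 49.1, 54.5 and 52.5 CPM in the infarct, 3.45-fold higher. Prdx1 stood at 387 against 708, 817 and 826 CPM (2.02-fold), Txnrd1 at 59.4 against 103, 109 and 113 CPM (1.83-fold), Srxn1 at 4.12 against 8.97, 19.5 and 10.7 CPM (3.17-fold) and Slc7a11 at 30.7 against 32.6, 65.0 and 70.7 CPM (1.83-fold, with replicate 1 close to baseline). Gsr went the other way without reaching 1.5-fold, at 532 CPM against 309, 345 and 429 CPM. In the classical gate 4 were higher, against 8.53% of all genes. They were Gclm at 25.4 against 42.9, 51.0 and 43.2 CPM, Txnrd1 at 61.9 against 96.1, 111 and 90.8 CPM, Srxn1 at 4.36 against 17.1, 15.6 and 8.88 CPM and Prdx1 at 506 against 727, 792 and 804 CPM. The classical gate also differed between the groups, with MHC class II genes at 2348 CPM at baseline against 6252 to 7899 CPM. Its Spp1 stood at 228 against 930 to 2169 CPM and S100a8 and S100a9 at 9.76 against 234 to 344 CPM. The part of these in the classical values was not tested. The ungated cells also had 4 members higher, against 14.3% of all genes. They were Gclm at 50.7 against 61.3, 82.3 and 92.6 CPM, Gsr at 48.8 against 68.5, 104 and 58.9 CPM, Srxn1 at 16.1 against 27.7, 37.5 and 28.9 CPM and Prdx1 at 722 against 1077, 1295 and 1498 CPM. Ungated cells had a median depth of 3583 UMIs at baseline and 7867 to 8961 in the infarct. Their Spp1 stood at 793 against 2110 to 3138.5 CPM and S100a8 and S100a9 at 70.2 against 340 to 480 CPM. The part of these in the ungated values was not tested.

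In the dendritic cell gate 2 members were higher (9.47% of all genes) and 1 was lower (24.2%). Slc7a11 stood at 9.62 CPM against 25.3, 33.5 and 21.2 CPM (2.77-fold). Srxn1 held 3 UMIs at baseline (1.31 CPM, 0.271 to 3.83) against 5.21, 6.71 and 5.29 CPM in the infarct, all above the interval. Gsr was lower, at 87.9 CPM against 58.3, 49.4 and 47.6 CPM, and Gclm stood on both sides of its baseline level of 28.0 CPM, at 18.1, 19.5 and 29.4 CPM. Whether the infarct ratio differed between gates was not tested, since each gate has 1 baseline value.

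**Figure D2:**
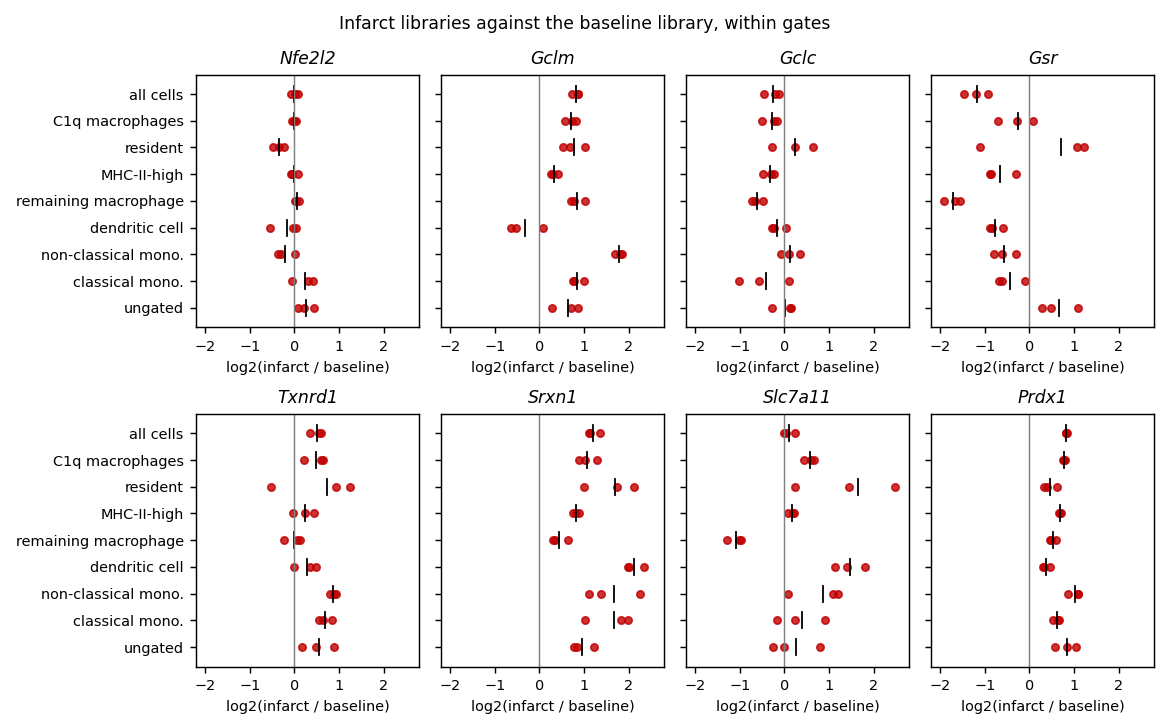
Log2 ratio of infarct to baseline for 8 members (Nqo1 was too rare), over all cells, C1q macrophages and the 7 classes with at least 200 baseline cells. Red dots are the 3 infarct libraries against the 1 baseline library, black ticks the ratio of the infarct mean, and the grey line is equal levels. Srxn1 and Prdx1 lie to the right of the line in every row, Gclm in every row but the dendritic cell gate, and Gsr and Slc7a11 lie on different sides of it in different rows.

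To ask which cell types carried the members within an infarct, each gate was tested against all other cells of the same 3 hearts by edgeR's quasi-likelihood test on summed counts, with the heart as a block and an adjusted p of 0.01 over all genes. The gates share most of their comparison cells, so their results are given side by side and are not independent. In the MHC-II-high gate 1 of 9 members tested was higher (9.59% of all genes) and 6 were lower (11.9%). In the Gpnmb+ Spp1-high gate 4 were higher (8.31%) and 1 was lower (10.7%), in the Gpnmb+ Spp1-low gate 2 were higher (6.01%) and 2 were lower (9.59%), and in the Saa3-Arg1 gate 3 were higher (9.57%). Of the smaller macrophage gates, 1 member was higher (13.2%) and 2 were lower (8.74%) in cycling cells, 4 were lower in interferon cells (4.64%) and 2 were lower in resident cells (6.99%). Among cells with little C1q, the counts were 2 higher (13.6%) and 2 lower (14.6%) for classical monocytes, 3 higher (9.87%) and 1 lower (10.6%) for non-classical monocytes, 1 higher (16.5%) and 4 lower (18.7%) for dendritic cells, and 2 higher (4.18%) and 1 lower (7.79%) for granulocytes. TMM scaling shifted the granulocyte gate by -0.35 against its other cells on the log2 scale, and the median of all genes tested there was -0.51.

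**Figure D3:**
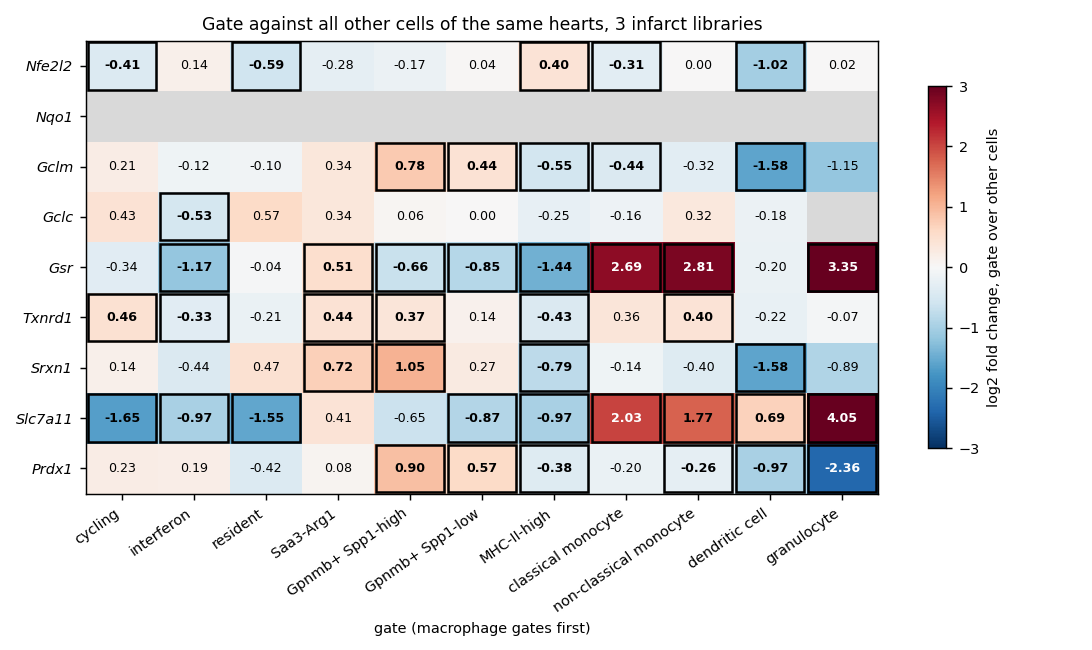
Log2 fold change of each member (rows) in each gate (columns) over all other cells of the same 3 infarct libraries, by edgeR. Boxed bold values passed an adjusted p of 0.01, and the colour scale ends at 3 in both directions. Grey fields had at most 3 UMIs in the gate, except that the Nqo1 row was left grey throughout. The MHC-II-high column is blue but for Nfe2l2, the Gpnmb+ Spp1-high column is red for Gclm, Txnrd1, Srxn1 and Prdx1, and Gsr and Slc7a11 are red in the monocyte and granulocyte columns.

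The transcription factor gene Nfe2l2 varied little between gates, with 2.48-fold between the highest and the lowest gate mean. In the MHC-II-high gate it stood at 299, 302 and 334 CPM in replicates 1, 2 and 3, against 238, 259 and 264 CPM in the other cells of those hearts, a log2 fold change of 0.40 (SE 0.03, adjusted p = 0.000116). It was the only member higher in this gate. Dendritic cells had the least, 107, 156 and 162 CPM against 263, 277 and 290.3 CPM (-1.02, SE 0.09, adjusted p = 1.26e-08), and the groups did not overlap. Nfe2l2 was also lower in cycling cells (218, 219 and 203 CPM, -0.41, adjusted p = 0.00248), resident cells (217, 183 and 201 CPM, -0.59, adjusted p = 0.000648) and classical monocytes (179, 231 and 248 CPM, -0.31, adjusted p = 0.00958). In the granulocyte gate it had 289, 326 and 438 CPM, the highest mean of all gates, but after TMM scaling its log2 fold change was 0.02 (adjusted p = 0.954). Of the calls, that in cycling cells was lost without replicate 2 (adjusted p = 0.0305) and that in resident cells without replicate 1 or 3 (0.0184 and 0.0267). The call in classical monocytes was lost without any of the 3 (0.0834, 0.0184 and 0.0156). It was also lost by the DESeq2 test, with DESeq2 size factors in place of TMM, and with doublets removed.

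Gclm, which lowers the substrate needs of the glutathione-making enzyme, had its highest mean in the Gpnmb+ Spp1-high gate. It stood at 116, 85.1 and 93.5 CPM in the Gpnmb+ Spp1-high gate against 63.1, 57.8 and 63.4 CPM in other cells, a log2 fold change of 0.78 (SE 0.08, adjusted p = 9.12e-06), and at 81.6, 70.1 and 87.6 CPM in the Gpnmb+ Spp1-low gate (0.44, SE 0.08, adjusted p = 2.09e-05). Neither set of 3 overlapped its other cells. The remaining macrophages, which were not tested as a gate, had 90.5, 72.6 and 76.6 CPM, level with the Spp1-low gate and overlapping the Spp1-high gate. It was lower in the MHC-II-high gate, at 44.5, 43.6 and 48.1 CPM against 75.0, 66.9 and 72.8 CPM (-0.55, SE 0.04, adjusted p = 0.000144). Dendritic cells were lowest, with 18.1, 19.5 and 29.4 CPM against 66.6, 59.4 and 65.2 CPM (-1.58, SE 0.14, adjusted p = 1.32e-08). In classical monocytes it stood at 42.9, 51.0 and 43.2 CPM (-0.44, adjusted p = 0.00568). This call was lost without replicate 1 or 3 (adjusted p = 0.0267 and 0.0411), by the DESeq2 test and with marker thresholds doubled. The Saa3-Arg1 gate lay just outside the threshold, with 86.5, 68.3 and 77.2 CPM and a log2 fold change of 0.34 (adjusted p = 0.0101).

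Gclc, the catalytic subunit that does the chemistry with or without Gclm, showed no such pattern. Its call was in the interferon gate, where it was lower at 14.3, 9.94 and 9.58 CPM against 19.4, 15.8 and 18.4 CPM (log2 fold change -0.53, SE 0.12, adjusted p = 0.00508). Without replicate 1, 2 or 3 its adjusted p was 0.0151, 0.0248 and 0.0215, so the call needed all 3 hearts. The call was also lost by the DESeq2 test and in cells thinned to 2000 UMIs. In the Gpnmb+ Spp1-high gate its level of 17.0 ± 2.40 CPM (SD, n = 3) gave a log2 fold change of 0.06. In the granulocyte gate 1 UMI was found over the 3 libraries.

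Gsr had one of the widest ranges, 31.1-fold between gate means. In non-classical monocytes it stood at 309, 345 and 429 CPM against 61.7, 41.2 and 47.4 CPM in other cells, a log2 fold change of 2.81 (SE 0.14, adjusted p = 3.43e-08). Classical monocytes had 263, 252 and 378 CPM (2.69, SE 0.13, adjusted p = 5.51e-07), and the few cells of the granulocyte gate had 819, 843 and 588 CPM (3.35, SE 0.19, adjusted p = 4.84e-67). In each of these gates every library lay far above the other cells. Among macrophages the Saa3-Arg1 gate was highest, at 84.8, 81.3 and 77.0 CPM (0.51, SE 0.08, adjusted p = 0.000999). Gsr was lower in the MHC-II-high gate (32.8, 21.9 and 22.2 CPM, -1.44, adjusted p = 1.89e-05) and in the interferon gate (30.9, 21.1 and 20.3 CPM, -1.17, adjusted p = 1.74e-08). Both Gpnmb+ gates were also lower against all other cells, at -0.66 for Spp1-high (40.7, 28.1 and 34.6 CPM) and -0.85 for Spp1-low (31.8, 28.8 and 31.3 CPM). Against C1q macrophages alone these values were 0.082 (adjusted p = 0.567) and -0.09 (adjusted p = 0.629), so that neither was called against macrophages. The interferon value became -0.40 (adjusted p = 0.00716), the MHC-II-high value -0.58 (0.000725), the Saa3-Arg1 value 1.46 (2.66e-06) and the granulocyte value 4.06 (2.11e-93).

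Slc7a11, the cystine importer that supplies cysteine for glutathione, had the widest range of the 8 members placed in gates, 63.0-fold, and was high where Gsr was high. That range rests on the small granulocyte gate. Outside it the gate means ran from 5.45 to 59.2 CPM for Slc7a11 and from 24.1 to 361 CPM for Gsr. The granulocyte gate had 359, 422 and 250.2 CPM against 14.9, 17.7 and 15.3 CPM in other cells, a log2 fold change of 4.05 (SE 0.25, adjusted p = 3.48e-55). Classical monocytes had 40.2, 84.2 and 53.3 CPM (2.03, SE 0.16, adjusted p = 1.03e-05) and non-classical monocytes 32.6, 65.0 and 70.7 CPM (1.77, SE 0.18, adjusted p = 9.82e-06). The 2 monocyte gates overlapped in level, and replicate 1 was lowest in both. Dendritic cells were higher as well, at 25.3, 33.5 and 21.2 CPM (0.69, SE 0.15, adjusted p = 0.000796) and no other member was called higher there. It was lower in 5 macrophage gates. Cycling cells had 4.06, 5.48 and 6.81 CPM (-1.65, adjusted p = 0.000128, and 0.0703 in cells thinned to 2000 UMIs) and resident cells 2.07, 4.76 and 9.67 CPM (-1.55, adjusted p = 0.000125). The MHC-II-high gate had 8.92, 9.73 and 9.84 CPM (-0.97, adjusted p = 8.81e-05), interferon cells 9.83, 6.94 and 7.89 CPM (-0.97, adjusted p = 0.000175) and Gpnmb+ Spp1-low cells 8.97, 6.62 and 10.1 CPM (-0.87, adjusted p = 0.000126). The Spp1-low call was lost without replicate 2 (adjusted p = 0.0116) and the resident call without replicate 1 (adjusted p = 0.0805), while without replicate 3 the resident value was -2.63 (0.000198). Against C1q macrophages alone the MHC-II-high, interferon, Spp1-low and resident values were -0.15, -0.27, -0.24 and -0.99, with adjusted p of 0.248, 0.232, 0.386 and 0.0492, while cycling cells stood at -1.01 (adjusted p = 0.00184) and dendritic cells at 1.29 (5.3e-06). In cells thinned to 2000 UMIs the dendritic value was 1.96 (4.95e-06), while the interferon, Spp1-low and resident calls were lost. The DESeq2 test lost the resident call as well.

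Txnrd1, which keeps thioredoxin reduced, had the narrowest range, 1.88-fold between gate means. It was higher in the Saa3-Arg1 gate, at 103, 116 and 106 CPM against 79.1, 70.5 and 84.6 CPM (log2 fold change 0.44, SE 0.08, adjusted p = 0.00205), and lower in the MHC-II-high gate, at 62.8, 52.3 and 72.3 CPM against 93.4, 83.0 and 94.1 CPM (-0.43, SE 0.05, adjusted p = 0.00116). These groups did not overlap. It was higher in the Gpnmb+ Spp1-high gate at 111, 78.0 and 100.1 CPM against 82.3, 72.0 and 86.2 CPM (0.37, adjusted p = 0.00238), where the groups overlap and the call was lost without replicate 1 (adjusted p = 0.0406). Non-classical monocytes had 103, 109 and 113 CPM (0.40, adjusted p = 0.00304, and 0.0207 and 0.0162 without replicates 2 and 3). Interferon cells were lower at 69.1, 49.7 and 60.6 CPM (-0.33, adjusted p = 0.00192, and 0.0279 without replicate 2). The interferon call was also lost in cells thinned to 2000 UMIs and against C1q macrophages alone. Thinning lost the non-classical call too, and doubled marker thresholds lost the Spp1-high call. Cycling cells had 114, 98.0 and 126 CPM (0.46, adjusted p = 0.000799, and 0.0114 without replicate 2). When all cells were thinned to 2000 UMIs, the cycling value became -0.18 (adjusted p = 0.65), and cycling cells had median depths of 14866 to 15093.5 UMIs before thinning.

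Srxn1 had its highest level in the Gpnmb+ Spp1-high gate, at 34.8, 28.5 and 26.5 CPM against 17.3, 14.6 and 14.8 CPM in other cells, a log2 fold change of 1.05 (SE 0.11, adjusted p = 8.08e-06). The Saa3-Arg1 gate came next, at 28.6, 23.7 and 22.2 CPM against 15.6, 14.7 and 14.4 CPM (0.72, SE 0.10, adjusted p = 0.00032), and these gates overlapped in level. The MHC-II-high gate was lower, at 10.1, 9.76 and 10.6 CPM against 21.7, 17.9 and 17.5 CPM (-0.79, SE 0.08, adjusted p = 0.000409). Dendritic cells had 5.21, 6.71 and 5.29 CPM (-1.58, SE 0.22, adjusted p = 8.53e-06), a call that was lost in cells thinned to 2000 UMIs (adjusted p = 0.503).

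Prdx1 was also highest in the Gpnmb+ Spp1-high gate, followed by the Spp1-low gate, with no overlap between them or with the next gate. The Spp1-high cells stood at 1703, 1354 and 1543 CPM against 866, 899 and 882 CPM outside it (log2 fold change 0.90, SE 0.07, adjusted p = 6.47e-07), and the Spp1-low cells at 1324, 1207 and 1251 CPM (0.57, SE 0.06, adjusted p = 2.22e-09). Both were above every value of the other cells. The MHC-II-high gate was lower, at 709, 723 and 712 CPM against 987, 1017 and 1005 CPM (-0.38, SE 0.02, adjusted p = 4.09e-05). The lowest levels were in dendritic cells, at 458, 462 and 508 CPM (-0.97, SE 0.06, adjusted p = 1.47e-10), and in the granulocyte gate, at 179, 177 and 300.2 CPM (-2.36, SE 0.20, adjusted p = 5.59e-30). Non-classical monocytes had 708, 817 and 826 CPM against 902, 916 and 909 CPM (-0.26, adjusted p = 0.00638). This call was lost without replicate 1 or 3 (adjusted p = 0.0473 and 0.0114). The DESeq2 test, and DESeq2 size factors in place of TMM, lost it as well.

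Nqo1 could not be placed in any gate. It was tested in 11 of the comparisons with 0 calls by edgeR, 0 unadjusted p under 0.05 (the lowest was 0.0888), and 0 calls by DESeq2 among the 7 in which DESeq2 gave an adjusted p. At this depth a difference in Nqo1 was not detectable.

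**Figure D4:**
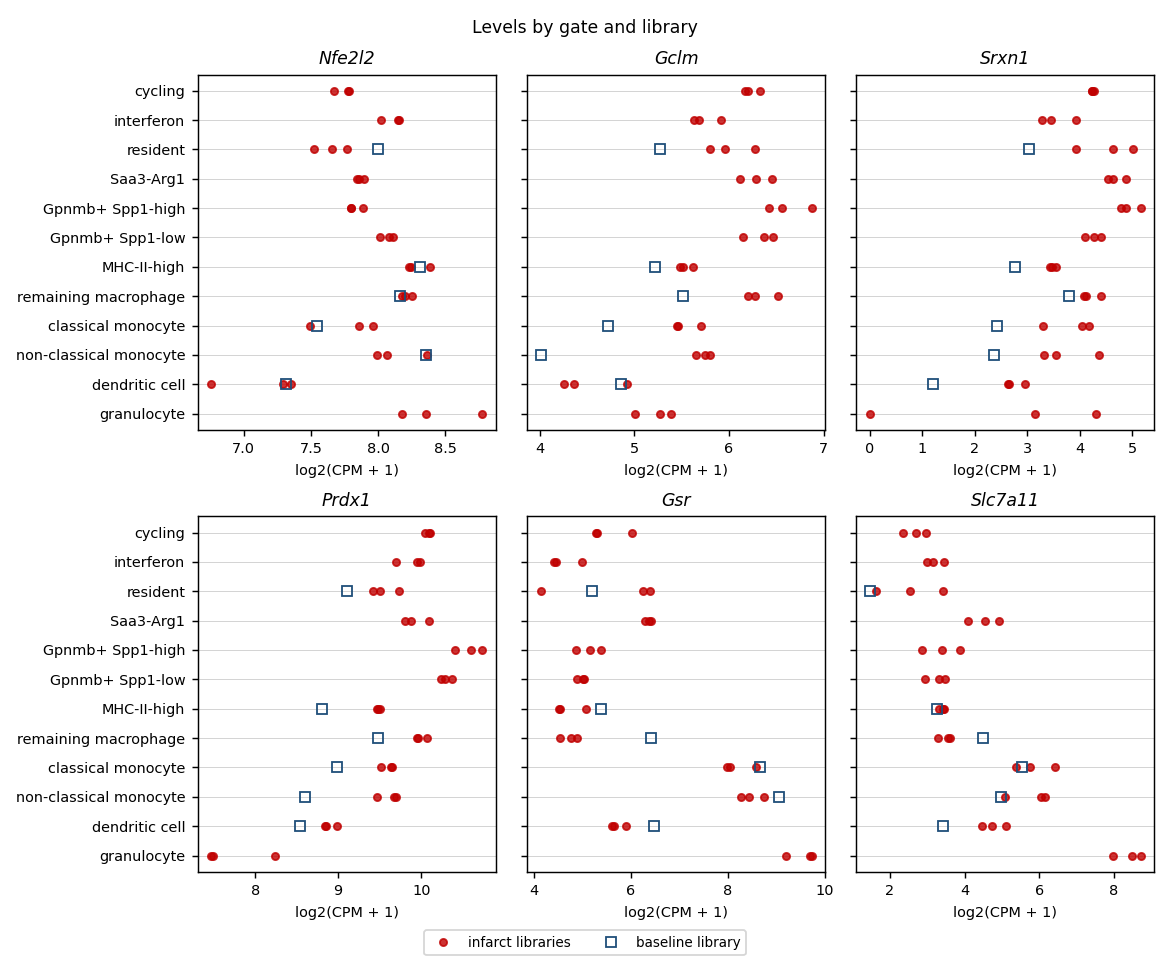
Levels of 6 members in 12 gates, as log2(CPM + 1), with an axis of its own for each gene. Red circles are the 3 infarct libraries and open blue squares the baseline library where it had at least 200 cells of the gate. Gclm, Srxn1 and Prdx1 are highest in the Gpnmb+ Spp1-high gate and lowest in dendritic cells or granulocytes, while Gsr and Slc7a11 are highest in granulocytes and monocytes.

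The closest pair of gates, Gpnmb+ cells with high and with low Spp1, was compared directly in the same 3 hearts. Of 8 members tested, 2 were higher in Spp1-high cells, against 3.55% of all genes. Srxn1 stood at 34.8, 28.5 and 26.5 CPM against 20.2, 16.2 and 18.3 CPM (log2 fold change 0.73, SE 0.15, adjusted p = 0.000519), and Prdx1 differed by 0.31 (SE 0.05, adjusted p = 1.76e-05), with levels as given above. Neither pair overlapped. Without replicate 1 the adjusted p was 0.0357 for Srxn1 and 0.0382 for Prdx1, and without replicate 2 it was 0.0102 for Srxn1. With marker thresholds doubled both calls were lost (0.246 and 0.093). The Srxn1 call was also lost by the DESeq2 test and in cells thinned to 2000 UMIs. Spp1-high cells had the lowest dissociation-response sum of the gates tested, 4076 to 4507 CPM, against 5396 to 5679 CPM in Spp1-low and 8143 to 9318 CPM in MHC-II-high cells. The Gpnmb+ gates also differed in MHC class II genes, at 1091 to 2428 CPM in Spp1-high and 4028 to 4901 CPM in Spp1-low cells. Gpnmb itself stood at 1394 to 1698 against 951 to 1095 CPM. The part of the dissociation-response sum, MHC class II genes and Gpnmb in these results was not tested.

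The members were set beside 66 other genes of the same pathways. Against baseline, levels over all cells of each library were compared by CPM, and 60 of the 66 reached 5 CPM. Of these, 14 were higher and 5 lower, or 23.3% and 8.33%, against 5.91% and 24.2% of all genes. The median log2 ratio was 0.12 against -0.23. By TMM 16.3% of all genes were higher and 10.9% lower. The lists were counted by CPM only, so the part of scaling in this contrast was not tested. The mix of cells also differed, with 2556 resident cells at baseline and 47 to 138 in an infarct library. The part of that mix in these counts was not tested. The list of heme, iron, quinone and other targets had 5 higher and 1 lower of 11, superoxide and peroxide genes 3 higher of 8, glutathione genes 3 higher and 2 lower of 14, thioredoxin and peroxiredoxin genes 2 higher and 2 lower of 11, regulators 1 higher of 11, and the 5 NADPH genes counted had neither. Both ferritin chains, which store iron, were higher, Fth1 at 6342 CPM against 14259, 16562 and 16324 CPM and Ftl1 at 5761 against 11023, 12099 and 11339 CPM. So were Txn1, the thioredoxin that Txnrd1 reduces, at 294 CPM against 518, 483 and 484 CPM, and Gpx4, which reduces lipid peroxides, at 238 against 451, 437 and 465 CPM. Txnip, which binds thioredoxin and blocks it, was lower at 669.8 CPM against 215, 286 and 265 CPM. The greatest ratio in size was that of Ephx1, microsomal epoxide hydrolase and itself a known NRF2 target, which was lower at 58.8 CPM against 6.50, 8.56 and 9.28 CPM.

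Within the infarct, the same lists were counted by gate. In the Gpnmb+ Spp1-high gate 23 of 64 pathway genes tested were higher (35.9%, against 8.31% of all genes) and 5 lower (7.81%, against 10.7%). They included 7 of 15 glutathione genes and 7 of 11 heme, iron and quinone genes, with none lower in either list. One example is Mgst1, a microsomal glutathione transferase, at 166 ± 12.0 CPM against 69.6 ± 10.9 CPM in other cells (SD, n = 3). Its log2 fold change was 1.37 (adjusted p = 1.32e-08). Another is Ftl1 at 23465 ± 1743 against 11047 ± 667 CPM (1.20, adjusted p = 1.86e-08). The Gpnmb+ Spp1-low gate had 16 of 64 higher (25%, against 6.01%) and 4 lower (6.25%, against 9.59%). There too 7 of 15 glutathione genes were higher, with 5 of 11 heme, iron and quinone genes, and none lower in either list. Mgst1 was also called higher in that gate (1.08, adjusted p = 2.47e-15). In the MHC-II-high gate 9 of 64 were higher (14.1%, against 9.59%) and 22 lower (34.4%, against 11.9%), among the latter Mgst1 (-1.43), Hmox1, the heme oxygenase (-1.02), and Txn1 (-0.73). Between the Gpnmb+ gates 7 of 59 were higher in Spp1-high cells (11.9%, against 3.55%) and 2 lower (3.39%, against 2.39%). Spp1-high cells exceeded Spp1-low cells in Hmox1 (417 ± 106 against 263 ± 19.6 CPM, 0.67, adjusted p = 5.4e-09) and in Txn1 (0.38), and were lower in Txnip (-0.51).

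The Saa3-Arg1 gate had 15 of 63 pathway genes higher (23.8%, against 9.57% of all genes) and 3 lower (4.76%, against 7.46%), with Idh1, an NADPH-making dehydrogenase, at 1.34, Hmox1 at 1.14 and the mitochondrial superoxide dismutase Sod2 at 0.93 on the log2 scale. Dendritic cells had 12 of 65 higher (18.5%, near the 16.5% of all genes) and 33 lower (50.8%, against 18.7%), and Hmox1 was among the lowest at 11.6 ± 5.61 CPM against 239 ± 68.4 CPM (SD, n = 3). Interferon macrophages had 9 of 64 higher (14.1%, against 7.67%) and 4 lower (6.25%, against 4.64%). The 3 with the largest changes came from the list of regulators. They were Keap1, the repressor of NRF2, at 71.2, 67.5 and 70.1 CPM against 39.4, 33.1 and 36.7 CPM (1.08, SE 0.06, adjusted p = 3.26e-09), Trim21 (1.69) and the small MAF gene Mafk (1.01). Cycling cells had 7 of 63 higher (11.1%, under the 13.2% of all genes) and 17 lower (27.0%, against 8.74%), with Prdx4, the peroxiredoxin of the endoplasmic reticulum, higher at 1.55. Classical monocytes had 19 of 64 higher (29.7%, against 13.6%) and 16 lower (against 14.6%), with Mgst1 at 2.03 and Gpx3, the secreted glutathione peroxidase, at -1.83. Non-classical monocytes had 18 of 63 higher (28.6%, against 9.87%) and 12 lower (19.0%, against 10.6%).

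Genes were ranked for likeness to each member by Pearson's r of log2(CPM + 10) across the 36 sums of 12 gates in 3 infarct libraries. They were the 5713 genes that averaged 20 CPM or more once gate markers and members were left out. The sums share hearts and depth, so r is a description only. Prdx1 was most like Anxa5 (0.97), Akr1a1 (0.96) and Cd68 (0.94), and Gclm was most like Ctsd (0.90), Atp6v1c1 (0.89) and Ftl1 (0.88). Srxn1 followed Galns (0.87), Slc36a1 (0.86) and Gas2l1 (0.85). Gsr was most like Il17ra (0.96), Hp (0.96) and Ppp2cb (0.95), and Slc7a11 like Btg1 (0.95), Mcl1 (0.94) and Ptgs2 (0.94). Nfe2l2 was closest to Lst1, Lyl1 and Xylt1 (0.84, 0.84 and 0.80), Gclc to Ppp1r14b, Sh3bgrl and Piezo1 (0.89, 0.88 and 0.87), and Txnrd1 had no gene above 0.72, which was Slc9a3r1.

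Among the members themselves, r was 0.90 between Gsr and Slc7a11, 0.79 between Gclm and Srxn1, 0.77 between Gclm and Prdx1 and 0.69 between Srxn1 and Prdx1. It was -0.78 between Slc7a11 and Prdx1 and -0.63 between Gsr and Prdx1. The sums of the small granulocyte gate are part of these values, and r without them was not computed. Nfe2l2 lay between -0.37 and 0.28 with the 7 other members for which r was computed, Nqo1 being too rare.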

How the data were processed

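Cardiac cells of reporter mice were sequenced by droplet capture (10x, 3' chemistry). The authors deposited raw UMI counts per gene and cell, made with Cell Ranger (version 3.1.0 per the file headers, 3.0.1 per the processing notes) on mm10, and filtered to barcodes called as cells. Cells with 500 to 40000 UMIs and over 200 genes, and genes found in at least 3 cells, were kept (18852 of 31053 genes). Infarct replicates were separate hearts, and cells were not treated as replicates.

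Counts were summed per library and gate. Within the infarct, gate and other cells were compared by edgeR 4.0.16 (R 4.3.3) quasi-likelihood tests with TMM scaling, filterByExpr, the library as a block and Benjamini-Hochberg adjustment over all genes. The pairing comes from the heart that both sums share. CPM of summed counts were set side by side for infarct and baseline, with no test and exact Poisson intervals from scipy 1.17.1. Alternatives were DESeq2 1.42.0, no block, no filter on low counts, left-out libraries, thinning to 2000 UMIs, removal of doublets or of cells over 10% mitochondrial UMIs, doubled marker thresholds and C1q macrophages as the only comparator. Thinned cells were assigned to gates again, so that the thinned gates held in part other cells than in the main run. Scrublet (scanpy 1.11.5) called too few infarct cells by its own threshold, so its highest-scoring cells were removed instead. All 9 members are named. Of the other pathway genes, the 3 of largest log2 fold change past the threshold with all 3 hearts moving the same way may be named per gate. For infarct against baseline, examples came from a list of the largest ratios. The members, gates and lists were chosen with earlier results of these data known, and the minimum of 5 CPM and of 200 baseline cells after values were seen. In simulated counts 79.5% of 200 genes changed 3-fold were recovered for the Gpnmb+ Spp1-high gate and 25.5% for the granulocyte gate. Plots were drawn with matplotlib 3.10.9.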

Additional observations from a re-analysis of the deposited data

Results flagged for a closer look

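Log2 ratios of infarct to baseline lay on opposite sides of 0 in different cell classes for Gsr and Slc7a11, with all 3 infarct libraries on the same side of the 1 baseline value in each class named. For Gsr, glutathione reductase, the ratio was -1.71 in remaining macrophages, -0.76 in dendritic cells and -0.66 in the MHC-II-high gate, but 0.66 in ungated cells. For Slc7a11, the cystine importer, it was -1.08 in remaining macrophages, but 1.65 in the resident gate, 1.47 in dendritic cells and 0.87 in non-classical monocytes. The resident value rests on 17 UMIs in the infarct. Ungated cells and remaining macrophages differed between the groups in depth and markers, as given above. With 1 baseline library the difference between classes was not tested.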

How the results depend on the processing

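Of 46 member calls over the 12 comparisons, 20 were kept under every alternative run. Of 547 alternative values of these calls, 475 kept direction and side of the threshold, 70 kept direction but lost the call (19 of them without the block), and 2 reversed: Txnrd1 in cycling cells when thinned (-0.18) and Gsr in Gpnmb+ Spp1-high cells against C1q macrophages alone (0.082). The cause was not tested. Of the log2 ratios of infarct to baseline, 18 moved by more than the spread between hearts. Counts of members called that moved by over 1.5 times were as follows. They join higher and lower calls and have no share of all genes beside them, so they describe the members only. With no replicate block, so without the pairing by heart, they were 2 for interferon, 0 for resident, 1 for Saa3-Arg1, 3 for Gpnmb+ Spp1-high, 2 for Gpnmb+ Spp1-low, 2 for classical, 2 for non-classical and 0 for Spp1-high against Spp1-low. Thinning gave 1 for interferon, 1 for resident, 6 for Saa3-Arg1 and 1 for the Spp1 pair, and could not be run for granulocytes, which had under 20 cells left in a library. With C1q macrophages alone as other cells the counts were 2 for interferon, 5 for Saa3-Arg1 and 2 for Spp1-low, and with the DESeq2 test 1 for resident, 5 for Saa3-Arg1, 2 for classical and 1 for the Spp1 pair. Of the DESeq2 calls for Saa3-Arg1, 4 were higher and 1 was lower. Calls over all genes moved too. For the Spp1 pair they were 113 higher and 64 lower by DESeq2, against 335 and 225. They were 524 and 462 against 805 and 913 for resident, 1206 and 903 against 1274 and 993 for Saa3-Arg1, and 1844 and 1596 against 1803 and 1942 for classical. No filter on low counts and removal of doublets each gave 6 for Saa3-Arg1, and doubled thresholds gave 0 for the Spp1 pair. In C1q macrophages alone 0 members were lower than baseline, against 1 over all cells. Leaving out each infarct heart gave 1 to 4 for cycling (1 without replicate 2), 3 to 4 for interferon, 0 to 2 for resident (0 without replicate 1), 4 to 6 for Saa3-Arg1, 3 to 4 for Spp1-low, 2 to 3 for classical, 2 to 4 for non-classical, 5 to 6 for dendritic cells and 0 to 3 for the Spp1 pair (0 without replicate 1). It gave 5 for Spp1-high, 7 for MHC-II-high and 3 for granulocytes each time, and 3 higher and 1 lower against baseline. Depth limits Nqo1, the granulocyte and infarct resident gates, and Srxn1 in dendritic cells.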
